A study of Mus musculus with 2 samples.

Results

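The 39 genes described here encode the core of the TGF-beta and BMP pathway: 5 ligands, 10 receptors, 8 SMADs, 7 feedback genes, 4 ID genes that BMP signals switch on, and 5 extracellular modulators. They are a named list out of 21774 protein-coding genes, and a KMT2D peak was given to a gene when that gene had the nearest end to the peak's summit, within 100 kb. The list was drawn up with the peaks of this library already known, so every count and value below is a description and no test was made on it. KMT2D, a histone H3 lysine 4 methyltransferase that works mainly at enhancers, was mapped by ChIP-seq in HT22, a line of immortalised cells from mouse hippocampus. The samples came from 1 wild-type clone grown to 70% confluency. Sonicated nuclear chromatin gave 1 ChIP library, pulled down with an antibody against KMT2D, and 1 input library made without antibody. Cells lacking the catalytic SET domain, which the study also names, are not analysed here. There was no replicate of either library. A list of peaks measures no expression, so the identity of the line was not checked against marker genes.

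TGF-beta and BMP ligands are secreted dimers that bring type II and type I receptor kinases together at the cell surface. The receptors phosphorylate SMAD proteins, which join SMAD4, enter the nucleus and act on target genes with other transcription factors. The same signals induce their own inhibitors, among them SMAD6, SMAD7, SKI and SKIL, so that the response is limited in time. In the hippocampus and other neural tissue the pathway is known for roles in progenitor fate, astrocyte differentiation and neuronal survival.

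Of the 39 genes, 12 were given at least 1 KMT2D peak (30.8%), with 19 peaks among them. By the same rule 10.8% of all protein-coding genes were given one. By role, 4 of 7 feedback genes and 4 of 8 SMADs had a peak, against 2 of 10 receptors, 1 of 4 ID genes, 1 of 5 extracellular modulators and 0 of 5 ligands. With so few genes in each role the Wilson 95% intervals of these shares overlap, from 25 to 84.2% for feedback genes, 21.5 to 78.5% for SMADs and 0 to 43.4% for ligands. These intervals treat genes as independent draws, which a chosen list is not, so they describe only how few the genes are. Above the upper quartile of fold the order of roles changed. A peak was kept by 2 of 7 feedback genes, 1 of 8 SMADs, 2 of 10 receptors and 1 of 5 extracellular modulators. No ID gene or ligand had one there, and the share of all protein-coding genes was 3.22%. Several peaks at 1 gene were found at Smad6 (4), Tgfbr3 (3), Smad3 (2) and Smad7 (2). These 4 genes are 10.3% of the members, and 2.87% of all protein-coding genes had 2 or more peaks, and 0.997% had 3 or more, as Smad6 and Tgfbr3 did.

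**Figure D1:**
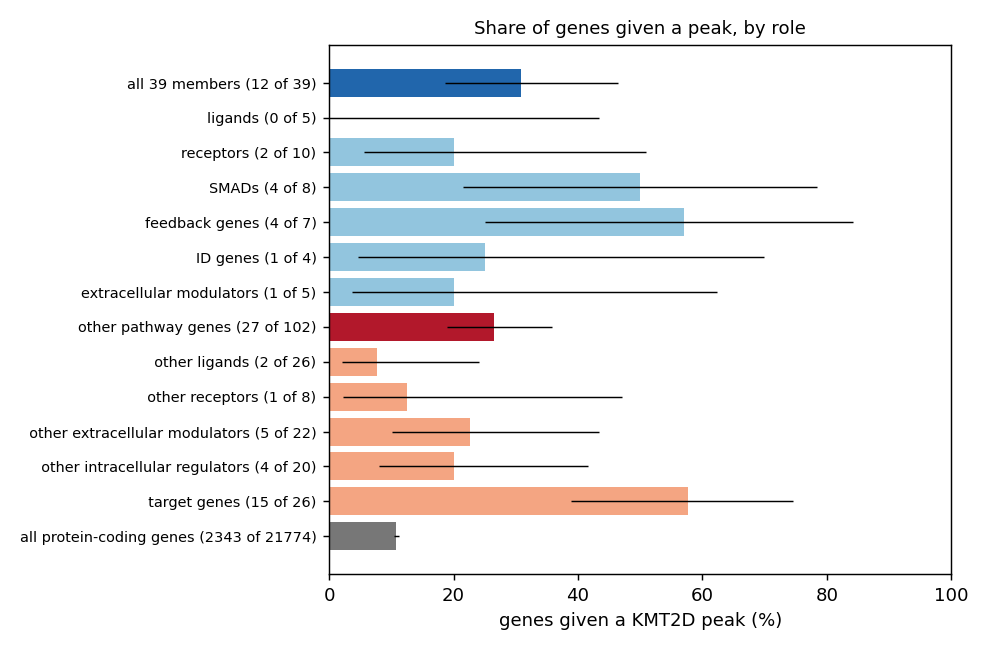
Share of genes given a KMT2D peak (horizontal axis, percent) in the 39 members, in each of their roles, in other genes of the pathway, and in all protein-coding genes, with the counts beside each name. Lines are Wilson 95% intervals, which treat the genes as independent draws although the lists were chosen with the peaks known. They cover no difference between libraries. Feedback genes (57.1%), SMADs (50%) and target genes of the pathway (57.7%) had the longest bars and ligands had none.

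The members had more sequence around them to collect peaks from. The length lying nearest to a gene's ends and within 100 kb had a median of 118 kb for the members, against 46.5 kb for all protein-coding genes. Per Mb of such sequence the members had 3.77 peaks, and all protein-coding genes had 1.97. Among genes with under 100 kb of it, 6 of 15 members had a peak (40.0%), against 8.74% of all such genes. Among those with 100 kb or more, the share was 6 of 24 members (25%), against 16.0% of all such genes. What this length contributed to the count was not tested further.

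The list held 3738 peaks, and its folds of ChIP over background, which are the authors' values, had a median of 4.45 and an interquartile range of 3.5 to 5.75. The 19 member peaks had a median fold of 4.52 (range 3.55 to 10.3), against 4.42 for all 3332 peaks given to a gene. Their summits carried a median of 31 ChIP fragments over a background of 6.32, and those of all given peaks carried 30 over 6.05. The fragments were worked out from each peak's fold and p-value. The interval given with a fold is an exact 95% Poisson interval with the background held fixed. It covers counting error of the ChIP fragments only, and not that of the background. Of the 19 folds, 10 lay above the list's median and 6 above its upper quartile. Most summits were far from gene ends. Only 4 of 19 (21.1%) lay within 2 kb of a gene end, against 30.2% of all given peaks, and 12 (63.2%) lay more than 10 kb from one, inside a gene or outside, against 46.7%. By place, 6 of the 19 were in a gene body beyond 2 kb of an end (31.6%, against 33.3% of all given peaks) and 9 were intergenic (47.4%, against 36.6%). Those 4 peaks belonged to 4 genes, 10.3% of the members, where 4.33% of all protein-coding genes had such a peak. The members had more sequence nearest to them (median 118 kb, against 46.5 kb) and longer genes (46.2 kb, against 17.2 kb). What this contributed to the distances was not tested.

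**Figure D2:**
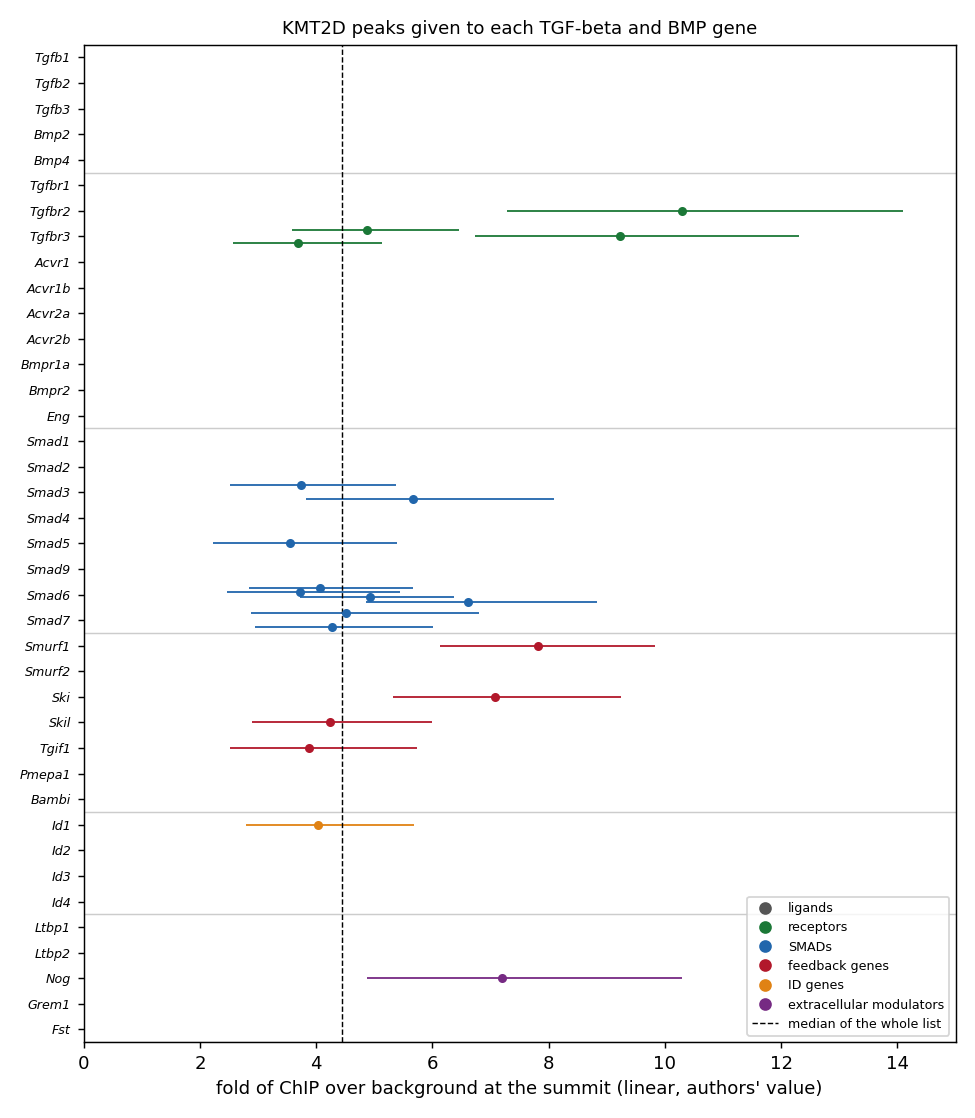
Fold of ChIP over background at the summit (horizontal axis, linear) for every KMT2D peak given to each of the 39 genes, grouped by role, with exact 95% Poisson intervals; rows without a point had no peak. The dashed line is the list's median of 4.45, and the points of Tgfbr2 (10.3) and Tgfbr3 (9.22) lie farthest to the right.

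None of the ligand genes was given a peak. Tgfb1, Tgfb2 and Tgfb3 encode the TGF-beta isoforms, and Bmp2 and Bmp4 encode bone morphogenetic proteins. At Tgfb1 the nearest summit lay 6841 bp from the gene but 806 bp from Ccdc97, with a fold of 7.82 (interval 5.73 to 10.4). The nearest summit to Tgfb3 lay 55938 bp away and was given to Ttll5 (8.83). Bmp4 was itself the nearest gene to a strong summit at chr14:46517352-46517647, with a fold of 9.32 (6.54 to 12.9), but at 126760 bp it fell outside the limit. The summits nearest to Bmp2 and Tgfb2 were over 1 Mb away, at 1339683 and 2717252 bp.

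Among the receptors, Tgfbr2 and Tgfbr3 had peaks and the other 8 had none. Tgfbr2, the type II receptor that binds TGF-beta, had the peak of highest fold among the 19. It lay at chr9:116218715-116219171, 43517 bp upstream of the gene's start, in intergenic sequence with no other protein-coding end nearer than 142704 bp. Its summit had 36 ChIP fragments over a background of 2.59, a fold of 10.3 (7.29 to 14.1), which ranked 75th among the 3738 peaks. The lncRNA gene Gm4668 lay nearer to this summit than Tgfbr2, at 23994 bp.

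Tgfbr3 encodes betaglycan, a co-receptor that presents TGF-beta to the type II receptor. It had 3 peaks, 2 of them within the gene. The strongest, at chr5:107124499-107124823, lay 18100 bp inside the gene from its nearer end and had 43 ChIP fragments over 3.77, a fold of 9.22 (6.73 to 12.3). Deeper in the gene, 51063 bp from that end, a second summit had 33 fragments over 8.22 and a fold of 3.69 (2.57 to 5.14). The intervals of these 2 peaks do not overlap. The third lay outside the gene by 19189 bp with a fold of 4.87 (3.59 to 6.46), 1656 bp from the lncRNA gene Gm42146. The type I receptor genes Tgfbr1, Acvr1, Acvr1b and Bmpr1a, the type II receptor genes Acvr2a, Acvr2b and Bmpr2, and the endoglin gene Eng, another co-receptor, were given none. Of these, Acvr1b, Bmpr1a and Eng had summits within 100 kb that lay nearer to other genes. Near Acvr1b the 2 summits lay 260 bp from Nr4a1 (fold 3.07) and 120 bp from Atg101 (4.73).

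SMAD genes carried 9 of the 19 peaks. Both inhibitory SMADs, Smad6 and Smad7, had several, as did Smad3, a carrier of TGF-beta and activin signals, and Smad5, a carrier of BMP signals, had 1. Smad1 and Smad9, which carry BMP signals, Smad2, and the shared partner Smad4 had none. At Smad1 a summit lay 43520 bp away and 127 bp from Mmaa (3.26).

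Smad6 had the strongest SMAD peak at its own start. The peak at chr9:64021885-64022346 had its summit 32 bp upstream of the annotated start, with 44 ChIP fragments over a background of 5.79 and a fold of 6.62 (4.85 to 8.84). The other 3 Smad6 peaks lay downstream of the gene, 11153, 25319 and 56455 bp beyond its end. Their folds were 4.92 (3.73 to 6.38), 3.73 (2.47 to 5.44) and 4.07 (2.84 to 5.67). The first of these had 55 ChIP fragments, more than the promoter, but also the highest background among the member peaks at 10.4. Only 0.386% of all protein-coding genes had 4 or more peaks. All 3 downstream summits had a non-coding gene nearer than Smad6. These were the lncRNA gene Gm36033, at 2178 and 8151 bp, and the pseudogene Gm18541, at 1507 bp. When genes of every biotype could take a peak, Smad6 kept 1.

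Smad3 is the next protein-coding gene downstream of Smad6, 195 kb away on chromosome 9. Its 2 peaks lay within the gene, 10088 and 51449 bp downstream of its start, at chr9:63747759-63747992 and chr9:63706488-63706719. The first had 28 ChIP fragments over 4.13 and a fold of 5.66 (3.83 to 8.09), and the second had 27 over 6.49 and a fold of 3.74 (2.51 to 5.38). Together, the genes and 2 kb on either side span 379 kb with 6 summits and no other protein-coding gene. When the genome was cut into 6988 windows of that length, 82 (1.17%) held as many summits, and the mean was 0.523. The region was picked for its peaks, so this places it among the denser stretches of the list and tests nothing.

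**Figure D3:**
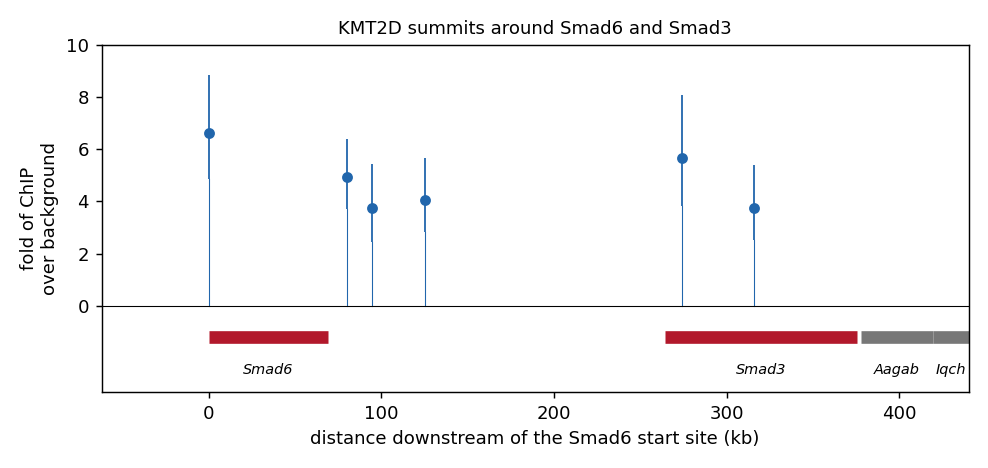
Folds of ChIP over background (vertical axis, linear, with exact 95% Poisson intervals) of the summits around Smad6 and Smad3, by distance downstream of the Smad6 start site in kb; bars below are protein-coding genes. One summit stands at the start of Smad6 (6.62), 3 lie between the genes (3.73 to 4.92) and 2 within Smad3 (5.66 and 3.74).

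Smad7, which blocks TGF-beta receptors and brings SMURF ligases to them, had a peak on each side. One lay 4103 bp outside the gene on the lower-coordinate side, with 21 ChIP fragments over 3.86 and a fold of 4.52 (2.88 to 6.81). The other lay 9860 bp outside on the higher-coordinate side, with 31 over 6.49 and a fold of 4.27 (2.95 to 6.01). Their intervals overlap almost fully. Both summits had an lncRNA gene nearer than Smad7, Gm20544 at 3826 bp and Gm41776 at 5334 bp. Smad5 had the weakest member peak, at chr13:56703039-56703482. Its summit lay 154 bp inside the gene and 112 bp downstream of the nearest of its 3 annotated starts, with 20 ChIP fragments over 4.92 and a fold of 3.55 (2.23 to 5.39).

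**Figure D4:**
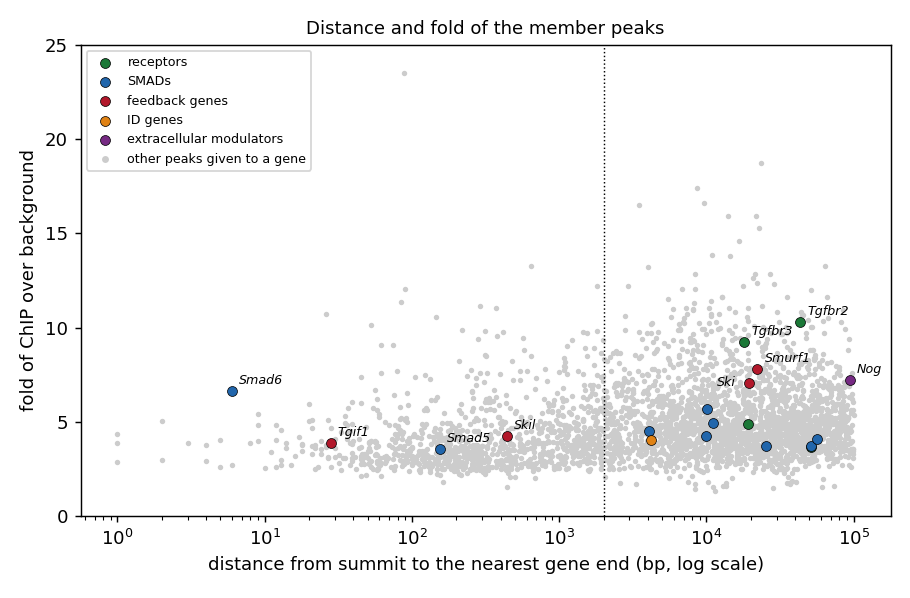
Distance from summit to the nearest gene end (horizontal axis, bp, log scale, 0 drawn at 1) against fold of ChIP over background (vertical axis) for the 19 member peaks, coloured by role, and for all other peaks given to a gene, in grey. Smad6, Tgif1, Smad5 and Skil lie left of the dotted line at 2 kb, and the members of highest fold, Tgfbr2 and Tgfbr3, lie far to its right.

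Feedback genes had 1 peak each at Smurf1, Ski, Skil and Tgif1. SMURF1 is a ubiquitin ligase that targets receptors and SMADs, SKI and SKIL (SnoN) are co-repressors bound to SMADs, and TGIF1 is a homeodomain repressor of SMAD targets. In Smurf1 and Ski the peaks lay deep within the gene and had higher folds than at Skil and Tgif1. The Ski interval overlaps those of Skil and Tgif1. The Smurf1 peak, at chr5:144898463-144898940, had 71 ChIP fragments over 8.22, the most of any member, and a fold of 7.81 (6.13 to 9.83). It lay 67192 bp downstream of the start and 1822 bp from the microRNA gene Mir7039. The Ski peak, at chr4:155173474-155173932, had 52 fragments over 6.49 and a fold of 7.08 (5.32 to 9.24), 48869 bp downstream of the start. Another summit, with a fold of 5.48, lay 12961 bp from an end of Ski but nearer to Faap20.

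At Skil and Tgif1 the peaks lay at a gene end and were lower. The Skil summit, in a peak of 756 bp that was the widest of the 19, lay 441 bp outside the gene with 30 ChIP fragments over 6.32 and a fold of 4.24 (2.90 to 5.99). The Tgif1 summit lay 28 bp upstream of a start, at chr17:70853169-70853644, with 23 over 5.19 and a fold of 3.88 (2.52 to 5.74). The lncRNA gene Gm36856 began or ended 20 bp from that summit, nearer than Tgif1, so the peak lay at both genes. Smurf2, a second SMURF ligase, Pmepa1, which holds back SMAD activation, and Bambi, a decoy receptor, had none. At Smurf2 there were 3 summits within 100 kb, all nearer to other genes. The strongest of them had a fold of 11.0 and lay 92156 bp away, and the other 2 had folds of 2.67 and 2.90.

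Among the ID genes, which encode helix-loop-helix inhibitors of differentiation factors, Id1 alone had a peak. It lay 4173 bp outside the gene at chr2:152741481-152741959, with 31 ChIP fragments over 6.92 and a fold of 4.04 (2.79 to 5.68). The pseudogene Gm14162 was slightly nearer, at 3974 bp. Id2 was the nearest gene to a summit 148737 bp away (3.97), beyond the limit, and the nearest summits to Id3 and Id4 lay 165498 and 947670 bp away.

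Among the extracellular modulators, Nog, which encodes the BMP antagonist noggin, had a peak at the far edge of the rule. It lay 93639 bp outside the gene, at chr11:89206606-89207260, with 28 ChIP fragments over 3.03 and a fold of 7.20 (4.87 to 10.3). The lncRNA gene Gm38759 lay nearer to its summit, at 81774 bp. The Nog peak was the member peak just inside 100 kb, and the first just outside lay 105166 bp from the nearest end of Ltbp1 (3.87). Ltbp2, Grem1, a BMP antagonist, and Fst, which encodes the activin-binding protein follistatin, had none.

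Ltbp1 encodes a protein that tethers latent TGF-beta to the matrix, and at 387 kb it is the longest of the 39 genes. It was given no peak, but its body held 4 summits, each more than 100 kb from either end, with folds of 3.87 (2.63 to 5.50), 3.61 (2.40 to 5.22), 3.81 (2.28 to 6.05) and 4.68 (3.25 to 6.55). The one with a fold of 3.61, at chr17:75178521-75178834, lay over a second, internal start of the gene, 106 bp upstream of it, and had 26 ChIP fragments over 6.49. Counting Ltbp1, 6 of the 39 genes had a summit in their body, and 6.72% of all protein-coding genes had one. The others were Tgfbr3, Smad3, Smad5, Smurf1 and Ski. The members are also longer, with a median gene length of 46.2 kb against 17.2 kb for all protein-coding genes. What gene length contributed to this count was not tested.

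**Figure D5:**
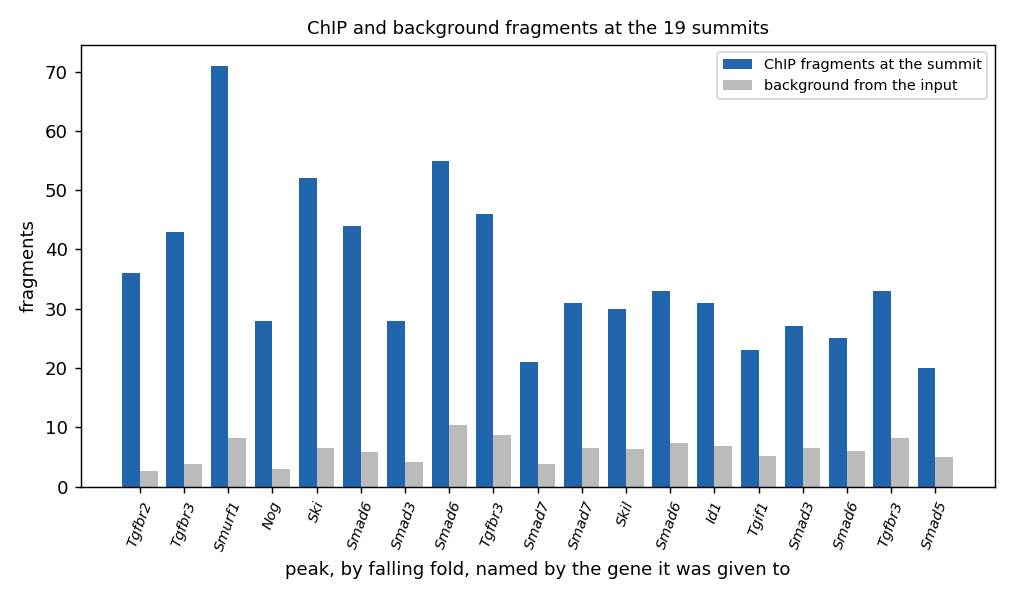
ChIP fragments at the summit (blue) and background from the input (grey), both in fragments on the vertical axis, for the 19 member peaks ordered by falling fold. The 2 left-most peaks, Tgfbr2 and one of Tgfbr3, pair 36 and 43 ChIP fragments with backgrounds of 2.59 and 3.77, while the tallest bar, Smurf1, has 71 over 8.22.

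High folds came with both many and few ChIP fragments. Smurf1 had the most fragments, 71, and the third highest fold, 7.81. Tgfbr2 and Nog had folds of 10.3 and 7.20 from 36 and 28 ChIP fragments, and their backgrounds of 2.59 and 3.03 were the lowest of the 19. The lowest background that the caller used was 2.19, and the weakest peak called there had 11 fragments and a fold of 3.76. Within 1 fragment of the list's median background the weakest had 17 fragments and a fold of 2.65. A member without a peak therefore could still hold KMT2D below these heights, which was not detectable at this depth.

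Promoter sequences came from RefSeq (GRCm38.p6), where 27 of the 39 genes have an entry of 300 bases (250 before a start to 50 after it), in 35 windows. Those of Tgfb3, Bmp2, Tgfbr3, Smad2, Smad4, Smad7, Skil, Pmepa1, Bambi, Id1, Nog and Fst are not shown. The windows at Smad6, Tgif1, the internal start of Ltbp1 and 1 start of Smad5 are printed because a KMT2D peak overlapped them. Smad5 has 3 windows that its peak overlapped, by 21, 63 and 65 bp, and the one with the longest overlap is shown. The Smad6 and Ltbp1 windows lay wholly inside their peaks, the Tgif1 window was covered over its last 162 bases and the Smad5 window over its first 65 bases. Capitals mark every match, on either strand, to 7 short motifs: the SMAD box CAGAC, the GC-rich SMAD element GGCGCC, the AP-1 site TGANTCA, the CRE core TGACG, the TEAD site GGAATG, the E-box CACGTG and the CCAAT box. All are given 5′ to 3′ on the gene's strand.
Smad6 (chr9:64022010-64022309, minus strand): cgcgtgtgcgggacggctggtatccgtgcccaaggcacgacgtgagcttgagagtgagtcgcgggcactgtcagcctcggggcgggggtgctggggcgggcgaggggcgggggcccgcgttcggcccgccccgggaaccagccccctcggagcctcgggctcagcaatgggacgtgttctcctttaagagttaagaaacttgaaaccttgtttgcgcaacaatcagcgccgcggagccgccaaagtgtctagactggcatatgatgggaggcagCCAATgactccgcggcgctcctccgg
Tgif1 (chr17:70853483-70853782, minus strand): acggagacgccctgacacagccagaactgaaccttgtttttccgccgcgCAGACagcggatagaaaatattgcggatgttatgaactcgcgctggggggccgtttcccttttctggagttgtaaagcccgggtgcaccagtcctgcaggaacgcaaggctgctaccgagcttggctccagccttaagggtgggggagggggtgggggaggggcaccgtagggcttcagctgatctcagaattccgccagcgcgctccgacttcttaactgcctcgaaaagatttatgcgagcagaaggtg
Ltbp1 internal start (chr17:75178531-75178830, plus strand): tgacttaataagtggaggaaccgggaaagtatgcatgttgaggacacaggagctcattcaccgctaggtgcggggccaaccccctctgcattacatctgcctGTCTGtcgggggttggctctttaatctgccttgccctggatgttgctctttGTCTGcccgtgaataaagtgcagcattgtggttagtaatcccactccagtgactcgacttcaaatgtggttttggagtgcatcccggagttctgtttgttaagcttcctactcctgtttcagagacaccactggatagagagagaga
Smad5 (chr13:56703418-56703717, plus strand): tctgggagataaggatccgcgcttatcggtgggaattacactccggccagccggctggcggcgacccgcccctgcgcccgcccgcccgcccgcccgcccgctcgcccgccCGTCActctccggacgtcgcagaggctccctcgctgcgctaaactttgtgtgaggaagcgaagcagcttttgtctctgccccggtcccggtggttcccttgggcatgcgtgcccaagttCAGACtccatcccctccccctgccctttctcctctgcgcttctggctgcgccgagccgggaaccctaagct

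These promoters differed in composition. The Smad6 and Smad5 windows each held 31 CpG dinucleotides, against a median of 13 over all 21263 promoter windows, while the Ltbp1 internal window held 7 and was 50% G and C. The SMAD box occurred once in the Tgif1 window and 2 times at Ltbp1, there on the other strand, and once in the printed Smad5 window. The Ltbp1 matches lay inside the KMT2D peak, while those of Tgif1 and Smad5 lay outside it. The Smad6 window had no match. The box is common, present in 17 of the 35 member windows (48.6%) and in 48.4% of all windows. The GC-rich element occurred in both Smad5 windows that are not printed, which overlap and share the same site, just outside the peak. It was in 12 member windows (34.3%) and in 15.3% of all windows. Windows of the same gene can overlap, so these are shares of windows and not of genes. The member windows were also richer in CpG, with a median of 27. No AP-1 site was found in any member window, where 6.99% of all windows held one. The CCAAT box was in the Smad6 window, inside the peak, and in 14 of 35 member windows (40.0%), near its share of 38.2% in all windows. The CRE core was in the printed Smad5 window, outside the peak, in 20% of member windows and in 23.6% of all. The TEAD site (5.71% of member windows and 13.6% of all) and the E-box (8.57% and 7.84%) had no match in the 4 printed windows. The overlap of GGCGCC with CpG-rich sequence was not separated.

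Other genes of the pathway, 102 that are not among the 39, were given a peak in 27 cases (26.5%), against the same 10.8% of all protein-coding genes. Target genes of TGF-beta or BMP signals made up most of these, with 15 of 26 (57.7%) holding 29 peaks. The highest was Atoh8, a transcription factor gene induced by BMP signals, with 119 ChIP fragments over 9.51 and a fold of 11.4 (9.47 to 13.6), within the gene. Col1a2, a collagen I chain, had 4 peaks upstream of its start, the strongest 15518 bp away with a fold of 10.1 (7.67 to 13). Klf10, first described as a TGF-beta inducible early gene, had 4 peaks with folds up to 7.55 (6.15 to 9.19). Tgfbi, a matrix protein named for its induction by TGF-beta, also had 4, the strongest at 7.55 (5.63 to 9.94). All 4 summits had an lncRNA gene nearer, at 305 to 3410 bp, against 8217 to 27306 bp to Tgfbi. Among the other targets with a peak were Ccn1, Ccn2, Cdkn1a, Cdkn2b, Col1a1, Itgb6, Junb, Klf11, Snai1 and Zeb1, with folds from 2.57 to 6.39. Several of these genes, among them Ccn1, Ccn2, Junb and Klf10, are also known as targets of other signals. At some of the other targets too, a non-coding gene lay nearer to a summit. The Cdkn1a summit lay 72 bp from the lncRNA gene Trp53cor1 and 11925 bp from Cdkn1a. Col1a1 summits 8057 and 7097 bp from that gene lay 394 and 566 bp from the lncRNA gene Gm46293.

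Of 26 other ligands 2 had a peak (7.69%, Wilson 95% interval 2.14 to 24.1%), near the share of 10.8% in all protein-coding genes. They were Bmp6 (6.18, interval 3.97 to 9.22) and Gdf5 (5.52, 3.51 to 8.31). Of 22 other extracellular modulators 5 had a peak. The highest folds were at Ltbp3 (8.78, 6.43 to 11.7) and Fbn1 (8.03, 5.87 to 10.8), which encode matrix proteins that hold latent TGF-beta, then Fstl1 (6.59) and Chrdl1 (5.37), a BMP antagonist, and Ltbp4 was the fifth. Of 20 other intracellular regulators 4 had one: Ppm1a, a phosphatase that acts on SMADs, at 4.94, Tab1 at 4.23, Nedd4l at 4.07 and Peli1 at 3.82. Of 8 other receptors only Hjv, a BMP co-receptor, was given peaks. All 5 of them lay 16 to 33 bp from tRNA genes and 23661 to 27335 bp from Hjv, with folds from 7.21 to 11.2, and without peaks at small RNA genes Hjv had none. No member peak lay within 500 bp of a tRNA or other small RNA gene.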

How the data were processed

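KMT2D ChIP-seq of wild-type HT22 cells was available as 1 peak list that the authors deposited, made from 1 ChIP and 1 input library. Per the submitters' processing notes, Bowtie2, Picard and MACS2 were used with the build mm10; no source used here gives versions or settings. The deposited columns used were the fold or ratio of ChIP over background, the −log10 of a p-value and the −log10 of a q-value (lowest 1.32); the deposited score was not used.

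ChIP fragments n and background b were solved for each peak from fold = (n + 1)/(b + 1) and the Poisson p-value, within 0.001 of the deposited −log10 p for 3690 of 3738 peaks (98.7%), including all 19 described here. PCR duplicates and read depth are not given in the list, so intervals cover counting error of the ChIP fragments only, with the background held fixed. Genes came from a RefSeq table of GRCm38.p6, the build that mm10 names: 49595 of 49997 genes on the main sequences were kept, 21774 of them protein-coding, and all 39 members matched by symbol. Strand and starts came from the RefSeq promoter table, where a gene has an entry. Positions count from 1. An equal distance went to the first symbol in alphabetical order.

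The members and lists were chosen with earlier results of these data known. Every member is described, and of the other pathway genes up to 4 of highest fold in a role are given with values; the Hjv, Ltbp1, Bmp4 and Smad6 to Smad3 remarks were chosen after the values were seen. One gene that the counts include is not reported here by name. With 1 library of each kind no test was made. The solving and the assignment were tested on simulated data. Python 3.11.15, numpy 2.4.6, pandas 2.3.3 and scipy 1.17.1 were used.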

Additional observations from a re-analysis of the deposited data

How the results depend on the processing

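Each count was repeated under 12 other settings, and no setting used a test. Using the whole peak interval, leaving out peaks with a background above 20 fragments or leaving out peaks at small RNA genes kept the same 12 members, 19 peaks and median fold of 4.52. The share of all genes in these settings was 10.4 to 10.8%. With gene bodies taken first Ltbp1 was added (13 members, against 10.9% of all genes). With the nearest transcription start, or the ends of genes with no listed start, Ltbp1 and Tgfb3 were added (14, against 10.5%). Tgfb3 has no listed start, so it took its peaks there through its gene ends. In the part of the list above the median −log10 q, 7 members with 9 peaks remained, against 5.64% of all genes, and Id1, Skil, Smad5, Smad7 and Tgif1 were lost. Above the upper quartile of fold, 6 members kept 6 peaks (median fold 7.51) and 12 other pathway genes kept one, against 3.22% of all genes. A limit of 20 kb left 12 member peaks at 9 members (23.1%), against 8.32% of all genes. A limit of 2 kb left 4 members with 4 peaks and 8 other pathway genes, against 4.33% of all genes. When genes of every biotype could take a peak, 5 members kept 6 peaks and 15 other pathway genes kept one, against 7.28% of all protein-coding genes. Id1, Nog, Smad3, Smad7, Smurf1, Tgfbr2 and Tgif1 then had no peak, as other genes lay nearer. When every gene within 100 kb counted, 20 members had 42 peaks and 49 other pathway genes had one, but so did 35.6% of all genes. Feedback genes and SMADs, 4 of each with a peak, fell to 2 of each above the median −log10 q (receptors 2), with the 2 kb limit (receptors 0) and with genes of every biotype (receptors 1). No paired analysis was possible because there was 1 library of each kind. Peak heights under the caller's threshold are not in the list, so the absence of a peak is limited by depth.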

Other observations

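On chromosome 13 the TGF-beta target Tgfbi and the BMP SMAD gene Smad5 lie near each other, 63.7 kb apart. The 4 summits given to Tgfbi and the 1 given to Smad5 span 121 kb, from position 56582280 to 56703164, with folds from 3.55 to 7.55. An lncRNA gene lay nearer than Tgfbi to each of its 4 summits. This stretch was picked after its values were seen, and whether its summits act on either gene was not tested.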
